A study of Mus musculus with 6 samples.

Results

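Slk, Arhgef10l, Exoc7, Csnk1d, Numb, Nfib and Aplp2 are 7 genes whose transcripts are known to be alternatively spliced, and they were followed here in mouse liver with and without the splicing factor SRSF3 in hepatocytes. They are 7 of 16277 genes that the array annotation covers with probe sets of a single gene. Each of their probe sets was read relative to the median over all probe sets of its gene on the same array, a value called usage here. The annotation assigned 143 probe sets to these genes, and none of them was shared with another gene. Of these, 138 were bright enough to test. Liver RNA of untreated mice of 1 month of age was hybridised to Affymetrix exon arrays. The SRSF3HKO group holds 3 arrays from hepatocyte knockout mice, and the WT group holds 3 arrays from age-matched wild-type mice, which the study describes as littermates. The driver of the deletion, the alleles carried by the controls and the sex of the animals are not given in the sources used here. The labels do not state that the WT arrays are from different mice, so the tests measure the spread between these arrays.

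Alternative splicing joins different sets of exons of a gene into different mRNAs. SR proteins such as SRSF3 bind exons and commonly favour their inclusion, and other factors such as the ESRP, MBNL and PTB proteins act on their own sets of exons, some of which switch as the liver matures. An exon array carries probe sets for many exons of a gene, so an exon that is joined in less often lowers its probe set relative to the others, whereas a change of the whole mRNA moves all of them. Among the 7 genes, Slk encodes a protein kinase that acts on the cytoskeleton, Arhgef10l a guanine nucleotide exchange factor, Exoc7 a subunit of the exocyst that tethers secretory vesicles, and Csnk1d a casein kinase known for phosphorylating clock proteins. Numb encodes an endocytic adaptor that restrains Notch, Nfib a transcription factor of the nuclear factor I family, and Aplp2 a membrane protein related to the amyloid precursor protein. Alternative exons of Slk and Exoc7 are known targets of ESRP proteins, Numb has alternative exons in its phosphotyrosine-binding and proline-rich regions, and Aplp2 has one that encodes a Kunitz protease inhibitor domain. RefSeq lists 20 transcripts for Arhgef10l, 14 for Numb, 10 for Nfib, 8 for Exoc7, 5 for Aplp2, 4 for Csnk1d and 3 for Slk, counting predicted ones. The positions of the probe sets within the genes were not analysed here, so no exon is named.

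Median intensity lay between 75.3 and 89.6 on the 6 arrays. Across genes, which are not independent replicates, arrays correlated at 0.979 to 0.984 within WT and at 0.940 to 0.965 within SRSF3HKO. Between the genotypes they correlated at 0.906 to 0.949, which overlaps the range within SRSF3HKO. Y-linked Eif2s3y was above the detection floor in WT replicates 1 and 2 and SRSF3HKO replicate 3 and below it on the others, so each genotype holds arrays with and without that signal. The level of Srsf3, the deleted gene, was 9.79, 9.24 and 9.35 in WT against 10.30, 9.10 and 9.78 in SRSF3HKO on the log2 scale. Its log2 difference of 0.26 ± 0.31 (limma adjusted p = 0.626) checks nothing about the labels, since it is not known which of its probe sets lie in the deleted part. The hepatocyte marker Alb had log2 levels of 13.88 to 13.92 in WT and 13.75 to 13.95 in SRSF3HKO. Of 8 measured hepatocyte markers 1 was called, Serpina1c, which was lower in SRSF3HKO, and their summed log2 level was 16.63 to 16.68 in WT and 16.38 to 16.45 in SRSF3HKO. The summed log2 level of 6 cholangiocyte markers ran from 9.21 to 9.65 in WT and from 9.87 to 11.59 in SRSF3HKO, with Cftr below the floor. Of 5 tested markers 0 were called by limma. Epcam and Spp1 had a limma p under 0.05 before adjustment (log2 changes 1.12 and 1.56). Krt7 and Sox9 changed by 0.30 and 0.11, and Krt19 by -0.31. Spp1 was the brightest of these markers on every knockout array, at 11.41 on SRSF3HKO replicate 1. The summed log2 level of 6 macrophage markers ran from 10.79 to 10.97 in WT and from 10.98 to 13.40 in SRSF3HKO, with 1 called higher (Marco), none below the floor and SRSF3HKO replicate 1 the highest. Sums of 6 endothelial markers (11.21 to 11.74 in WT, 10.38 to 11.69 in SRSF3HKO) and of 7 stellate cell markers (11.72 to 11.99 and 11.82 to 12.48) overlapped between the genotypes, with Kdr and Col3a1 called lower. Dcn, the brightest stellate cell marker, was higher on every knockout array without passing the test (log2 change 0.76, limma adjusted p = 0.0724). Sums of 5 lymphocyte markers (8.10 to 8.19 and 7.73 to 9.11, Cd3g below the floor) and 3 neutrophil markers (6.58 to 7.00 and 6.83 to 8.30, Mpo below the floor) also overlapped. The 2 measured erythroid markers were at 8.78 to 9.96 in WT and 6.64 to 8.01 in SRSF3HKO, with Alas2 called lower. The part of these other cell types in the results on the 7 genes was not tested.

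At the level of whole genes, Nfib and Arhgef10l fell in SRSF3HKO livers, and the other 5 genes did not pass the test. The level of a gene is the median over its probe sets of log2(intensity + 16), and every log2 change is SRSF3HKO minus WT with its SE and 3 arrays per group. This scale understates changes of dim probe sets. In bulk tissue, fewer cells of a type and less RNA per cell cannot be told apart. The 2 called genes of 7 stand beside 11.9% of all 11711 tested genes called by limma at an adjusted p under 0.05. In 5 of the 7 genes the arrays of the genotypes did not overlap, against 35.6% of all tested genes. The median log2 change was -0.33 over the 7 genes and 0.08 over all tested genes.

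Nfib levels were 9.34, 9.27 and 9.34 in WT against 8.35, 8.20 and 8.05 in SRSF3HKO on the log2 scale. The knockout arrays all lay well below the controls, which differed little among themselves. The log2 change was -1.12 ± 0.18 (limma adjusted p = 0.00941), so the level in WT was 2.17 times that in SRSF3HKO. Dropping WT replicate 1, 2 or 3 ended the call (limma adjusted p = 0.0625, 0.0509 and 0.0509), at changes of -1.10, -1.14 and -1.11. Arhgef10l levels were 7.30, 7.08 and 7.62 in WT against 6.52, 6.57 and 6.54 in SRSF3HKO. Here the knockout arrays were nearly equal and the controls spread more, again without overlap. The log2 change was -0.79 ± 0.20 (limma adjusted p = 0.0401). This call was lost when WT replicate 1, 2 or 3 was dropped (limma adjusted p = 0.132, 0.0744 and 0.148) and without SRSF3HKO replicate 1 or 3 (0.0704 and 0.0835). It also ended with a Y-linked covariate (limma adjusted p = 0.0671), at -0.86, and with no filter on dim genes (0.0516).

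Numb had levels of 8.22, 8.12 and 8.46 in WT against 7.93, 7.66 and 7.65 in SRSF3HKO, lower on every knockout array without passing the test (log2 change -0.52 ± 0.20, limma adjusted p = 0.119). Its median includes 3 probe sets near background, and over the tested ones alone the change was -0.72 (limma adjusted p = 0.0461). Aplp2 levels were 10.76, 10.46 and 10.69 in WT against 10.20, 10.42 and 10.29 in SRSF3HKO, a gap between the nearest arrays that is small beside the spread (log2 change -0.33 ± 0.18, limma adjusted p = 0.254). Slk was the only one of the 7 genes that was higher on every knockout array. Its levels were 8.04, 7.80 and 8.14 in WT against 8.38, 8.66 and 8.29 in SRSF3HKO (log2 change 0.45 ± 0.20, limma adjusted p = 0.177).

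In the remaining genes the genotypes overlapped. Csnk1d had levels of 9.76, 9.56 and 9.50 in WT against 9.98, 10.01 and 9.37 in SRSF3HKO (log2 change 0.18 ± 0.23, limma adjusted p = 0.638). Exoc7 had 7.52, 7.51 and 7.54 in WT against 7.69, 7.25 and 7.78 in SRSF3HKO (log2 change 0.05 ± 0.20, limma adjusted p = 0.902). The knockout arrays of both genes spread more than the controls. For Exoc7 the direction turned without SRSF3HKO replicate 1 (-0.0083) or 3 (-0.05) and with quantile normalization (-0.0095).

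**Figure D1:**
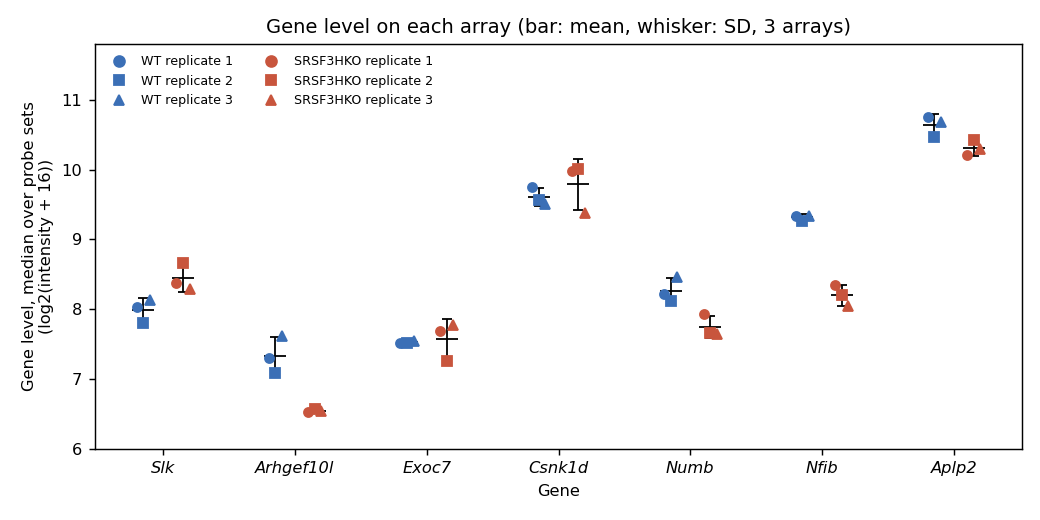
Level of each of the 7 genes (median over its probe sets, log2(intensity + 16), vertical axis) on every array; blue symbols are WT and red symbols SRSF3HKO, horizontal bars are means and whiskers SDs of 3 arrays. Nfib and Arhgef10l are lower on all knockout arrays and passed the test; the genotypes overlap in Csnk1d and Exoc7. Heights are not comparable between genes, because probe sets differ in brightness.

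The usage changes furthest from 0 were at 1 probe set of Aplp2, which was higher in SRSF3HKO, and at 1 probe set of Numb, which was lower, and neither passed the main test. None of the 138 tested probe sets of the 7 genes was called by limma on usage, against 23 of all 135668 tested probe sets (0.017%). Before adjustment 21 had a limma p under 0.05 (15.2%), against 12% of all tested probe sets. The arrays of the genotypes did not overlap in usage for 35 of the 138 (25.4%, with 23 higher and 12 lower in SRSF3HKO), against 17.8% of all. An absolute usage change of at least 1 on the log2 scale was seen at 2 of the 138 (1.45%), near the 1.67% of all tested probe sets. limma's diffSplice, which compares each probe set with the others of its gene and pools the spread over the gene, called the same 2, against 0.658% of all. It counts the probe sets of a gene as independent although they share the arrays, so its p can be too small. The median absolute usage change was 0.18 in the 7 genes and 0.18 over all tested probe sets. The plot of usage changes by gene sets the 138 probe sets against the range of the whole array.

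**Figure D2:**
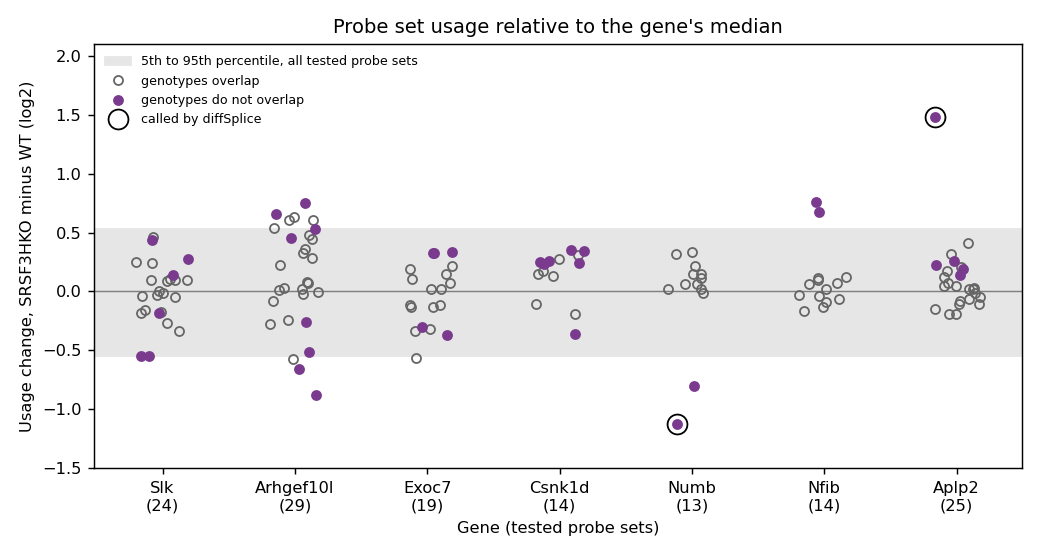
Usage change (SRSF3HKO minus WT, log2, vertical axis) of each of the 138 tested probe sets, by gene, with the number of tested probe sets in brackets; filled points have no overlap between the genotypes, black rings mark diffSplice calls, and the grey band spans the 5th to 95th percentile of all tested probe sets. A single Aplp2 probe set at 1.48 and a single Numb probe set at -1.12 lie furthest from 0.

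Aplp2 probe set 5477899 was higher in SRSF3HKO while the other 24 probe sets of the gene had far smaller changes. Its intensities were 184, 150 and 175 in WT against 352, 448 and 389 in SRSF3HKO, so its own level was 2.22 times as high in the knockout (on the log2(intensity + 16) scale) in a gene whose median was slightly lower. Relative to the gene's median, its signal amounted to 11.5%, 11.77% and 11.6% in WT and to 31.2%, 33.9% and 32.3% in SRSF3HKO. These percentages compare arrays only, since probe sets differ in brightness for reasons other than transcript level. Arrays of a genotype thus agreed closely and the genotypes lay far apart. The usage values were -3.12, -3.09 and -3.11 in WT against -1.68, -1.56 and -1.63 in SRSF3HKO, a usage change of 1.48 ± 0.16 (limma adjusted p = 0.0738). By diffSplice it was 1.43 with an adjusted p of 1.495e-10, the 7th lowest p of all 135668 probe sets. That p counts the probe sets of the gene as independent. The limma p compares the arrays at this probe set, with its variance drawn toward a trend over all tested probe sets. Only 527 of all tested probe sets had a larger absolute usage change. The change kept its direction and size when any single array was left out (1.45 to 1.51), with limma adjusted p of 0.141 to 0.325. It passed the test with eBayes without trend (limma adjusted p = 0.0292), with a pseudocount of 64 (0.0370) and with the mean as gene level (0.0486). With the Y-linked covariate the usage change was 1.48 (limma adjusted p = 0.251).

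The other Aplp2 probe sets had usage changes between -0.19 and 0.41. The lowest was that of probe set 5166920, with usage values of -1.74, -1.55 and -1.81 in WT against -1.98, -1.90 and -1.79 in SRSF3HKO, which overlapped. In 4 further probe sets (4998195, 5375334, 5293740 and 4361098) the knockout arrays lay above all controls, by 0.14 to 0.26 on average. Of these, 4998195 was the gene's median on WT replicate 3 and 5375334 on WT replicate 1. By diffSplice their changes were 0.03 and 0.08. RefSeq lists 4 curated transcripts of Aplp2.

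Numb probe sets 5115381 and 5250368 both had lower usage in SRSF3HKO. For 5115381 the intensities were 820, 765 and 893 in WT against 318, 237 and 213 in SRSF3HKO, lower on each knockout array than on any control. Its usage values were 1.48, 1.49 and 1.37 in WT against 0.46, 0.33 and 0.19 in SRSF3HKO. The usage change was -1.12 ± 0.12 (limma adjusted p = 0.0738), and -1.17 by diffSplice (adjusted p = 0.00182). It was the probe set with the lowest limma p for usage among the 138. For 5250368 the intensities were 574, 461 and 540 in WT against 234, 181 and 186 in SRSF3HKO. Its usage of 0.98, 0.78 and 0.66 in WT stood against 0.04, -0.04 and 0.01 in SRSF3HKO, so the signal lay above the gene's median in the controls and at the median in the knockout. On every knockout array 5250368 was averaged with another probe set to give that median, so it helped to set its own reference there. The usage change was -0.80 ± 0.13 (limma adjusted p = 0.134, diffSplice adjusted p = 0.0716). Both were bright, with mean log2 levels of 8.89 and 8.41 over the 6 arrays, far above the floor of 5.63.

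The remaining 11 tested Numb probe sets had usage changes between -0.01 and 0.34, the highest at 5214799, whose usage values of 0.38, 0.56 and 0.39 in WT against 1.09, 0.36 and 0.90 in SRSF3HKO overlapped. None of these 11 separated the genotypes. Because 3 further probe sets (4963678, 5600330 and 5616929) were at or below an intensity of 16.8 on every array, the reference median lies lower than that of the tested probe sets. Relative to the tested ones alone, the change at 5115381 was -0.93 (limma adjusted p = 0.0865). It passed the test with the mean as gene level (-1.19, limma adjusted p = 0.0308), with a pseudocount of 64 (0.0351), with the filter at the median (0.0473) and against a median that leaves it out (0.0499). Leaving out any single array left it between -1.06 and -1.19, with limma adjusted p of 0.141 to 0.325. With the Y-linked covariate it was -1.13 (limma adjusted p = 0.251).

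**Figure D3:**
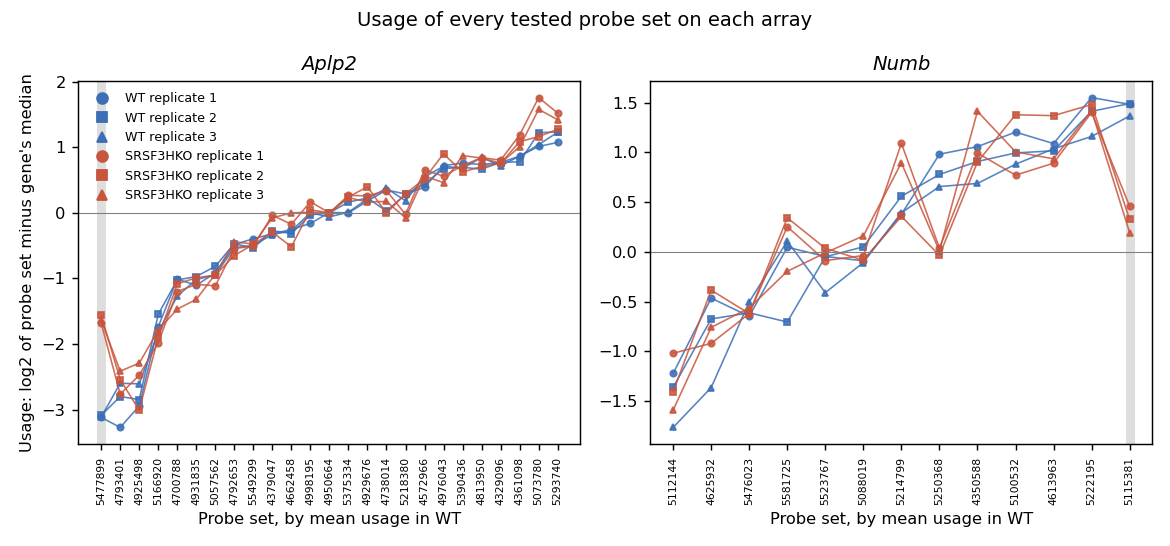
Usage (log2 of a probe set minus the median of its gene on that array, vertical axis) of every tested probe set of Aplp2 and Numb, ordered by mean usage in WT, with 1 line per array (WT blue, SRSF3HKO red); the grey bar marks the probe set with the largest absolute usage change. At Aplp2 probe set 5477899 the knockout arrays lie above the controls by 1.48, and at Numb probe sets 5115381 and 5250368 below them by 1.12 and 0.80.

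Likeness to Numb probe set 5115381 over the 6 arrays was measured as Pearson's r of usage, among 2265 probe sets with an absolute usage change of at least 1. The highest values were those of Id1 probe set 4533372 (r = 0.995), Bhlhb9 probe set 4904667 (r = 0.994) and Ift57 probe set 5130075 (r = 0.994). All had lower usage in SRSF3HKO, with log2 changes of -1.96, -1.19 and -1.08. The points share the 6 arrays and the probe sets were preselected by size, so these values are descriptions only. Mean usage of the Bhlhb9 probe set was 0 in WT, so it may itself be its gene's median there.

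Slk, the kinase gene, showed small shifts in both directions. Probe set 4324231 had usage values of -0.91, -0.89 and -1.14 in WT against -1.57, -1.78 and -1.23 in SRSF3HKO (usage change -0.55 ± 0.18, limma adjusted p = 0.339). Its intensity hardly differed (113 ± 9.74 in WT and 105 ± 11.4 in SRSF3HKO, SD, n = 3), whereas the gene as a whole was higher on each knockout array. Probe set 5244758 had a usage change of -0.54 ± 0.22 (limma adjusted p = 0.411), also without overlap. At the other end, probe set 5117647 had usage values of -0.50, -0.62 and -0.65 in WT against -0.15, -0.13 and -0.18 in SRSF3HKO (0.44 ± 0.11, limma adjusted p = 0.253). The highest change was 0.47 ± 0.21 at 4589023, where SRSF3HKO replicate 2 lay among the controls. Of 24 tested probe sets 6 separated the genotypes, 3 in each direction, against 17.8% of all tested probe sets. Changes were under 0.5 at 22 of the 24.

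Arhgef10l had the largest median absolute usage change of the 7 genes. The SD of usage changes over its 29 tested probe sets was 0.43, at the 83.1st percentile of all genes tested, and its median absolute change of 0.36 lay at the 89.4th. The lowest was probe set 4828383, with intensities of 247, 141 and 255 in WT against 71.9, 23.2 and 85.2 in SRSF3HKO. Its usage values were 0.74, 0.21 and 0.47 in WT against -0.07, -1.28 and 0.12 in SRSF3HKO (usage change -0.88 ± 0.37, limma adjusted p = 0.418, diffSplice adjusted p = 0.0513), so SRSF3HKO replicate 2 stood far below the other knockout arrays. Without that array the change was -0.45 (limma adjusted p = 0.320). Probe set 5594852 was steadier, with 0.84, 0.60 and 0.38 in WT against -0.0026, 0.01 and -0.15 in SRSF3HKO (-0.65 ± 0.15, limma adjusted p = 0.223). The highest change was 0.75 ± 0.19 at 5455401 (limma adjusted p = 0.250), with usage values of -1.43, -1.10 and -1.11 in WT against -0.46, -0.75 and -0.17 in SRSF3HKO.

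Intensities of Arhgef10l probe set 5455401 were 54.8 ± 17.5 in WT and 52.7 ± 13.4 in SRSF3HKO, and those of 5521446, with a usage change of 0.66, were 69.8 ± 2.36 and 62.9 ± 9.66 (SD, n = 3). The signal of these dim probe sets thus overlapped between the genotypes while that of the gene fell. Across the 29 tested probe sets the usage change correlated with mean usage in WT at r = -0.50. The same r was -0.61 in Nfib, -0.43 in Numb, -0.38 in Aplp2, -0.29 in Slk, 0.08 in Exoc7 and 0.28 in Csnk1d, over 14, 13, 25, 24, 19 and 14 probe sets. These are descriptions over probe sets that share arrays and a median, and since WT usage enters the change itself, part of a negative r is built in. The part of brightness in the shifts was not tested. Probe set 5607970, which was not tested, had intensities of at most 15.5 on all arrays.

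Nfib, which fell as a gene, held 2 probe sets that were lower by less than the rest. Probe set 5507047 had intensities of 256, 202 and 285 in WT against 188, 206 and 171 in SRSF3HKO, and 4480567 had 284, 219 and 243 in WT against 200, 210 and 132 in SRSF3HKO. The usage of 5507047 was -1.26, -1.497 and -1.11 in WT against -0.68, -0.40 and -0.50 in SRSF3HKO, a change of 0.76 ± 0.16 (limma adjusted p = 0.198, diffSplice adjusted p = 0.0621). The usage of 4480567 was -1.12, -1.39 and -1.32 in WT against -0.60, -0.38 and -0.84 in SRSF3HKO (0.67 ± 0.17, limma adjusted p = 0.246, diffSplice adjusted p = 0.166). The other 12 probe sets had usage changes between -0.16 and 0.12, all with overlap. The lowest of them, 4833213, went from -0.16 to 0.0012 without SRSF3HKO replicate 3. The 2 probe sets were the dimmest of the gene in WT relative to its median, and at mean log2 levels of 7.85 and 7.82 both lay above the floor.

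Csnk1d had the smallest spread of usage changes of the 7 genes. All 14 probe sets had changes under 0.5 relative to the gene's median. The genotypes were separated at 7 of them, 6 higher, against 17.8% of all tested probe sets. Of these 6, 5326202 entered the gene's median on every array and 5101672 on WT replicates 2 and 3. By diffSplice the 6 had changes of 0.09 to 0.22, and none was called. Probe set 4693877 was the one that was lower without overlap, with usage values of 0.07, 0.13 and 0.18 in WT against -0.21, -0.39 and -0.09 in SRSF3HKO (-0.36 ± 0.13, limma adjusted p = 0.352). Its intensities were 836 ± 48.9 in WT and 746 ± 128 in SRSF3HKO (SD, n = 3). On WT replicate 1 and SRSF3HKO replicates 1 and 3, 4693877 and 5326202 were averaged to give the gene's median, so 4693877 helped to set its own reference. Against a median that leaves it out, its change was -0.61 (limma adjusted p = 0.239), and by diffSplice -0.54 (adjusted p = 0.631). Probe set 5101672 was the highest, with 0.14, 0.04 and 0.16 in WT against 0.48, 0.55 and 0.36 in SRSF3HKO (0.35 ± 0.11, limma adjusted p = 0.324). Its change was 0.43 against a median that leaves it out and 0.22 by diffSplice. The SD of usage changes in Csnk1d, 0.21, lay at the 25.9th percentile of all genes, and its median absolute change of 0.24 at the 69.6th.

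In Exoc7 the lowest usage change was -0.56 ± 0.31 at probe set 4996261 (limma adjusted p = 0.517). Its usage was -1.02, -1.59 and -1.17 in WT against -1.58, -2.46 and -1.43 in SRSF3HKO, with overlap and with intensities down to 11.7 on SRSF3HKO replicate 2. The highest was 0.33 ± 0.15 at 5359397, with -0.84, -0.93 and -0.85 in WT against -0.78, -0.33 and -0.51 in SRSF3HKO (limma adjusted p = 0.442). Of the 19 tested probe sets 5 separated the genotypes, 3 higher and 2 lower, against 17.8% of all tested probe sets. Probe set 5223656 was too dim to test, at intensities of 3.57 to 40.0.

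**Figure D4:**
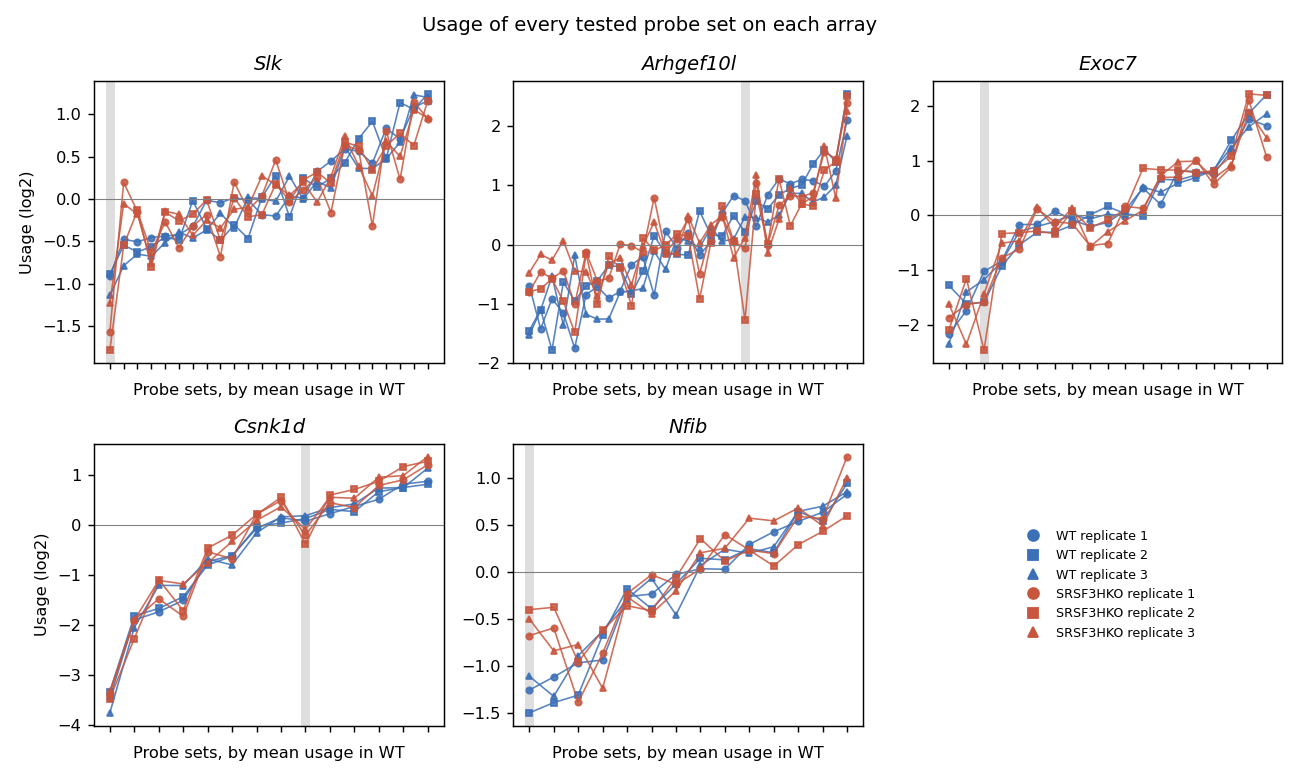
Usage (log2 of a probe set minus its gene's median, vertical axis) of every tested probe set of Slk, Arhgef10l, Exoc7, Csnk1d and Nfib, ordered by mean usage in WT, with 1 line per array (WT blue, SRSF3HKO red); the grey bar marks the probe set with the largest absolute usage change of each gene. The lines of both genotypes run close together except at single probe sets, such as the 2 of lowest WT usage in Nfib, and at many probe sets of Arhgef10l.

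A list of 51 other genes with known alternative exons was read in the same way, and 46 of them had 1127 tested probe sets. At the gene level 4 of the 46 rose and 2 fell by limma, beside 11.9% of all tested genes called. limma on usage called 0 of the 1127 probe sets and diffSplice 6 (0.532%, against 0.658% of all tested probe sets), in 5 genes. The genotypes did not overlap in usage at 22.1% of the 1127, against 17.8% of all tested probe sets. Their median absolute usage change was 0.18, as in the 7 genes. The diffSplice calls were at Fn1 (2 probe sets), Ctnnd1, Nfia, Ktn1 and Tjp1. Ctnnd1, the catenin gene, had usage of -2.23, -3.37 and -2.41 in WT against -0.66, -1.18 and -1.25 in SRSF3HKO at probe set 5589147 (usage change 1.64, diffSplice adjusted p = 9.615e-05). Nfia, a relative of Nfib, had a probe set (4571363) with usage of 0.86, 1.09 and 1.42 in WT against 2.01, 2.39 and 2.098 in SRSF3HKO (1.04, diffSplice adjusted p = 0.00475). Tjp1, a tight junction gene, was the one with lower usage, with a change of -0.82 at probe set 4847462 (diffSplice adjusted p = 0.0407, limma adjusted p = 0.340). Its usage was -0.44, -1.39 and -0.47 in WT against -1.63, -1.70 and -1.42 in SRSF3HKO, so WT replicate 2 lay close to the knockout arrays.

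Among 20 tested genes for regulators of alternative exons, 1 rose and 1 fell by limma, beside 11.9% of all tested genes called. Esrp2, whose product drives exon choices of epithelial cells and of mature hepatocytes, had log2 levels of 8.94, 8.74 and 8.72 in WT against 7.80, 8.23 and 7.97 in SRSF3HKO. It fell by 0.80 on the log2 scale (limma adjusted p = 0.0374), and all knockout arrays lay below the controls. Mbnl2, of the muscleblind family, had levels of 8.36, 7.80 and 7.82 in WT against 9.18, 8.91 and 8.64 in SRSF3HKO (log2 change 0.92, limma adjusted p = 0.0439). Both calls were lost when WT replicate 1, 2 or 3 was dropped (limma adjusted p = 0.154, 0.111 and 0.112 for Esrp2 and 0.0787, 0.158 and 0.155 for Mbnl2), without SRSF3HKO replicate 1 (0.0855 and 0.0963) and with the Y-linked covariate (0.0931 and 0.106). The Esrp2 call also ended without SRSF3HKO replicate 3 (0.0794), and that of Mbnl2 with no filter on dim genes (0.0565). Esrp1 was below the floor in the mean of the 6 arrays. The median log2 change over the 20 genes was 0.13, against 0.08 over all tested genes.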

How the data were processed

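The authors deposited linear intensities of core exon probe sets, made with PLIER in Affymetrix Expression Console per the submitters' processing notes; their versions, background step and genome build are not given in the sources used here. From these, log2(intensity + 16) was taken. Probe sets with exactly 1 gene symbol in the platform annotation were kept, and symbols were updated through RefSeq. The level of a gene is the median over its probe sets, and usage is a probe set minus that median on the same array. A gene or probe set was tested where its mean exceeded the 90th percentile of 1046 chemosensory receptor genes (log2 5.35 for genes, 5.63 for probe sets). Usage was tested in genes with at least 3 tested probe sets. Tests used limma 3.58.1 in R 4.3.3 (lmFit, eBayes with trend) on 3 SRSF3HKO and 3 WT arrays, with Benjamini-Hochberg adjustment over all tested genes or probe sets and a threshold of 0.05. Both steps were run on simulated data with independent noise at each probe set. That setting does not test noise shared by the probe sets of a gene. The number of arrays limits the precision.

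The 7 genes and the gene lists were chosen with earlier results of these data known. By rule, the probe sets named in each gene are those with its largest positive and negative usage changes and any with a change of at least 1 and no overlap, and the 3 most like Numb probe set 5115381. All others, among them Numb 5250368, Slk 5244758 and 5117647, Arhgef10l 5594852 and 5521446, Nfib 4480567, the further Aplp2 probe sets, those too dim to test, and those of Ctnnd1, Nfia and Tjp1, were named after their values were seen. Alternatives were other pseudocounts, normalization, gene levels, filters, eBayes settings, diffSplice, a Y-linked covariate and each array left out.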

Additional observations from a re-analysis of the deposited data

How the results depend on the processing

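Of the 7 genes 2 were called at the gene level, against 3 with the gene level over tested probe sets (Numb added), 1 with no filter, 1 with the Y-linked covariate, and 0 to 2 when each array was left out in turn (0 without each of the WT arrays). None of their probe sets was called for usage by limma, against 2 with a pseudocount of 64, 2 with the mean as gene level, 1 relative to the other probe sets (Numb), 1 with the filter at the median (Numb), 1 with eBayes without trend (Aplp2) and 2 with diffSplice, and 0 to 0 when each array was left out. Leaving out probe sets that are their gene's median on every array, an alternative chosen after seeing the data, gave 0. The gene level change of Exoc7 turned to -0.0095 with quantile normalization, -0.0083 without SRSF3HKO replicate 1 and -0.0541 without replicate 3, within a range of -0.0541 to 0.2092 over single arrays left out, and the usage change of Nfib probe set 4833213 to 0.0012 without SRSF3HKO replicate 3, within -0.3061 to 0.0012. The cause was not tested. Over all genes, 1391 calls became 618 with the Y-linked covariate, 244, 274 and 434 without WT replicate 1, 2 and 3, and 2155 without SRSF3HKO replicate 2. Over all probe sets, 23 usage calls became 7 with a pseudocount of 1, 161 with 64, 205 with the mean, 133 relative to the other probe sets, 59 with the filter at the median, 41 without trend, 40 with robust eBayes, 53 in the added alternative, 893 with diffSplice, and 0 with the covariate or without any single array. No paired analysis was possible because the labels give no replicate numbers shared between the genotypes.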
